A study of Mus musculus with 3 samples.

Results

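The genes described here make, sense, take up and export cholesterol. They are the enzymes of the mevalonate and sterol pathways, the SREBP transcription factors with their escort and anchor proteins, a cholesterol carrier, and the pumps and apolipoproteins of efflux. Of 31 listed genes, 28 had a probe set that the array annotation assigns to that gene symbol alone, out of 12393 genes named in this way. Acat2, Insig1 and Soat1 had none in the annotation used here and are not analysed. The 28 genes had 52 such probe sets, 1 to 4 each, and every gene is represented by its brightest.

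The cells were marrow cells of C57/BL6 mice, grown for 3 days in human M-CSF at 50 ng/ml, which turns them into macrophages, and then exposed to human RANKL at a dose of 150 ng/ml. RANKL is the cytokine that makes osteoclasts, and cells were taken after 0, 24 and 72 h of it. The labels call the 3 stages precursor, differentiating precursor and osteoclast. Each stage is 1 culture on 1 Affymetrix array, and none of the cultures used here went without RANKL to the later times. RANKL and time in culture therefore cannot be told apart. The comparisons ask how the genes of cholesterol supply differ along this path.

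Cholesterol is built from acetyl-CoA through mevalonate, isoprenoids, squalene and lanosterol. When membranes of the endoplasmic reticulum are poor in sterol, the protein SCAP escorts SREBP to the Golgi, where it is cut and released to switch on most enzymes of the pathway. When sterol is plentiful, the INSIG proteins hold SCAP back, and the LXR receptors switch on export through ABCA1 and ABCG1 to apolipoproteins such as apoE. Osteoclasts depend on this pathway for the isoprenoids that anchor small GTPases to membranes: nitrogen-containing bisphosphonates, the drugs used against bone loss, act on farnesyl diphosphate synthase, the product of Fdps.

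Deposited signals were not on a common scale. Their medians over all gene probe sets were 36.7, 60.9 and 62.7 at 0, 24 and 72 h, a shift of 0.73 and 0.77 on the log2 scale. Each array was therefore centred on its median, and all signals and differences below are relative to that median unless the deposited scale is named. A scaled signal under 29.6, the 40th percentile, was raised to that floor before differences were taken, and genes with both arrays of a comparison at the floor were left out of it. Calls were made at a 2-fold difference, a log2 difference of 1, and "rose" and "fell" below are used of such calls alone. With 1 array per time there are no replicates and no test. The only error at hand is technical, estimated from genes with a pair of probe sets. This SD of a log2 difference was 0.41 from 0 to 24 h, 0.49 from 0 to 72 h and 0.36 from 24 to 72 h. The scale also sets the balance of all calls: calls higher made up 58.8% of calls at 24 h, against 91.3% on the deposited scale, 46.9% after quantile normalization and 42.2% with trimmed mean scaling. At 72 h against 0 h they made up 49.4% (86.8% on the deposited scale), and at 72 h against 24 h 40.9% (30.8% with scaling to hybridization controls). The technical SD leaves out variation between cultures, and in bulk RNA fewer cells of a type and less RNA per cell cannot be told apart.

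Relative to the array medians, most enzymes of cholesterol synthesis were at their lowest after 24 h of RANKL and had largely returned by 72 h. Of 17 measured enzymes, 5 fell by at least 2-fold from 0 to 24 h (29.4%, against 9.22% of all genes) and 0 rose (against 13.2%). Below their 0 h signal lay 14 (82.4%, against 43.1% of all genes). On the deposited scale 10 did, and 1271 of all 8460 genes. From 24 to 72 h, 4 rose (23.5%, against 6.92%) and 0 fell (against 10%). Above their 24 h signal lay 16 (94.1%, against 40.5% of all genes). In all, 13 of the 17 enzymes (76.5%) had their lowest signal at 24 h, against 20.7% of the 7898 genes measured in all comparisons. For 10 of the 13 both steps were larger than the technical SD (58.8% of the enzymes against 7.0% of all genes). These 10 were Hmgcs1, Mvk, Pmvk, Idi1, Fdps, Fdft1, Lss, Cyp51, Msmo1 and Sc5d.

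**Figure D1:**
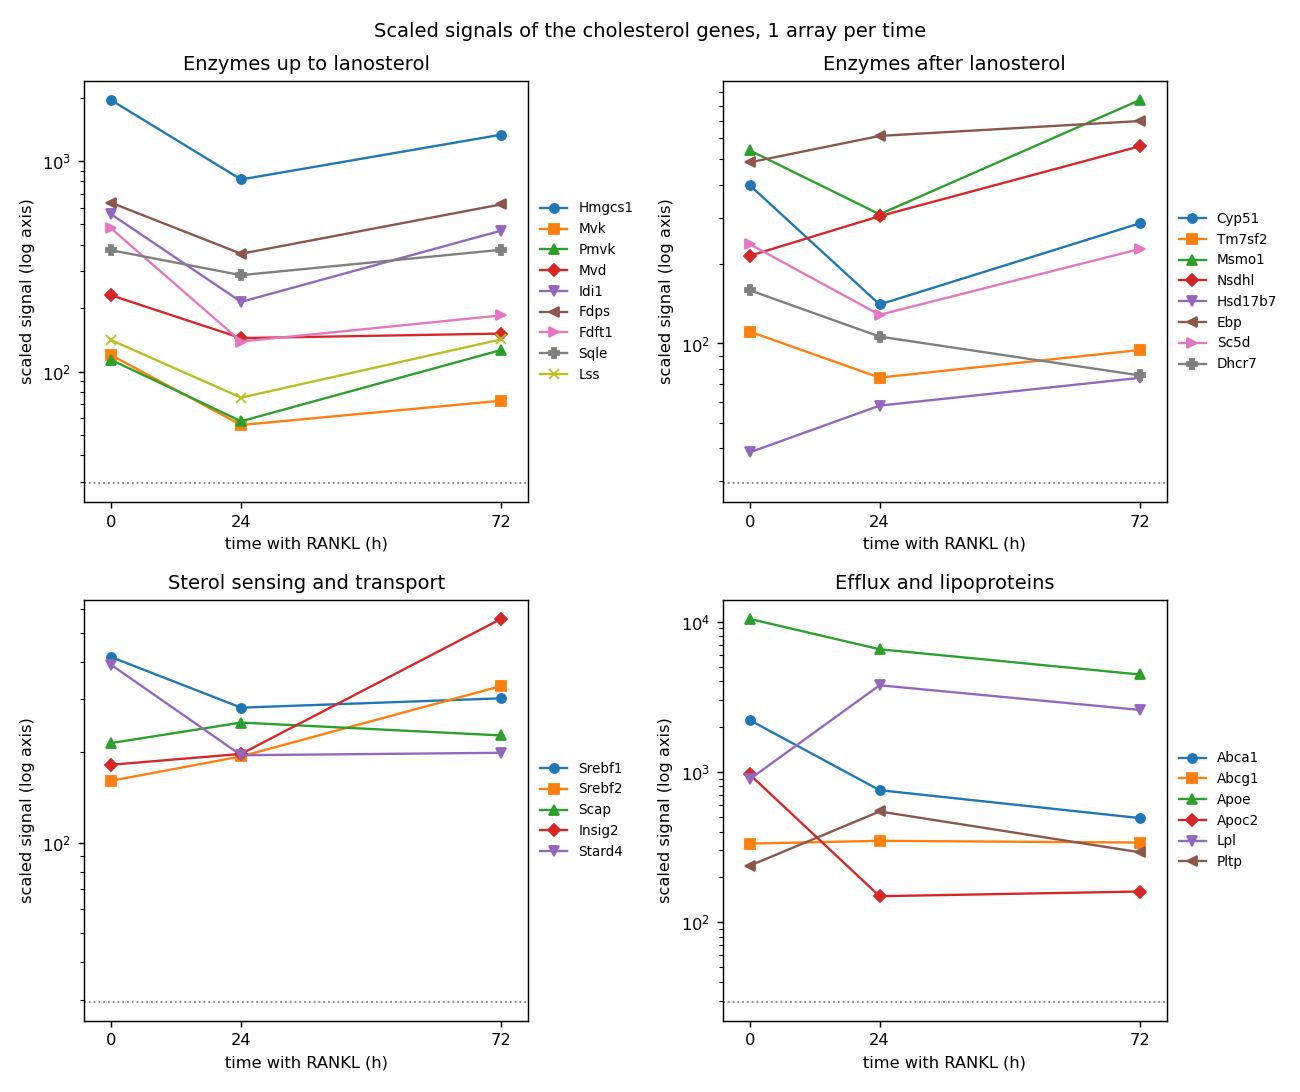
Scaled signal on a log axis against hours with RANKL for the 28 members, 1 point per array and 1 line per gene, with the floor of 29.6 as a dotted line and no error bars because there are no replicates. All 9 enzymes up to lanosterol have their lowest point at 24 h (on the deposited scale 7 of 9 lie below their start), while Nsdhl, Hsd17b7 and Ebp climb at both steps, Insig2 climbs after 24 h, and Apoc2 drops early. Of all genes, 20.7% had their lowest signal at 24 h, and on the deposited scale 1271 of 8460 lay below their start then.

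Among all 28 members, 8 were at least 2-fold lower at 24 h than at 0 h (28.6%, against 9.22% of all 8439 measured genes) and 2 were higher (7.14% against 13.2%). With a 1.5-fold rule, 15 were lower and 3 higher, against 17.8% and 26.7% of all genes. The members' median log2 difference was -0.67, against 0.12 for all genes, and that of the synthesis enzymes was -0.81. On the deposited scale, without any correction of the shift between arrays, these medians were 0.056 for the members, -0.076 for the enzymes and 0.78 for all genes. The members called lower there were Fdft1 and Apoc2, against 314 of all 8460 measured genes. The falls of Hmgcs1, Mvk, Idi1, Cyp51, Stard4 and Abca1 came to less than 2-fold.

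The first steps of the pathway, from acetyl-CoA to isoprenoids, lay lower at 24 h in 6 of 6 measured genes, with a median of -1.04. Of all genes, 43.1% lay lower. Hmgcs1 encodes the cytosolic HMG-CoA synthase, which adds the third acetyl unit. Its scaled signals at 0, 24 and 72 h were 1946, 817 and 1334, a 2.38-fold fall and then a 1.63-fold higher signal. All 4 of its probe sets were lower at 24 h, with log2 differences from -1.47 to -0.82, and higher again at 72 h, from 0.71 to 1.10. At 72 h against 0 h they differed in direction, with log2 differences of -0.54, -0.67, 0.09 and 0.24.

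Idi1, the isomerase that readies the isoprenoid unit for chain building, had signals of 559 at 0 h, 214 at 24 h and 467 at 72 h. It fell 2.61-fold and then rose 2.18-fold, and both of its probe sets moved this way. Mvk, mevalonate kinase, went from 120 to 55.7, a 2.15-fold fall, and stood at 72.7 at 72 h, 1.3-fold above 24 h. The Mvk fall was also lost with the probe sets averaged and with a floor at the 60th percentile.

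Pmvk, phosphomevalonate kinase, had signals of 114, 58.0 and 127 at 0, 24 and 72 h, just short of a 2-fold fall at a log2 difference of -0.97 and then a 2.18-fold rise. Fdps had signals of 633, 363 and 622, so that its 72 h signal was within a factor of 1.02 of the start. Mvd, which removes the carboxyl group of mevalonate diphosphate, had 230 at 0 h, 144 at 24 h and 151 at 72 h. Between 24 and 72 h it differed by 1.05-fold. At 72 h it lay 1.52-fold below its start, and Mvk lay 1.65-fold below by its brightest probe set. The other probe set of Mvk ended above its start (53.8, 37.1 and 67.2). On the deposited scale the brightest probe sets of both genes lay above their start at 72 h. Their log2 differences there were 0.17 for Mvd and 0.05 for Mvk.

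From squalene to cholesterol the genes divided. Fdft1, squalene synthase, which commits farnesyl diphosphate to sterols, had signals of 479 at 0 h, 139 at 24 h and 185 at 72 h. It fell 3.45-fold by 24 h (-0.996 on the log2 scale with the probe sets averaged, just short of 2-fold), and by its brightest probe set was still 2.59-fold below the start at 72 h. A second probe set of Fdft1 showed the early fall too (289, 109 and 208) but ended within a factor of 1.39 of the start, so the 72 h call depends on the probe set. It was also lost on the deposited scale, at -0.60 on the log2 scale. Cyp51, lanosterol demethylase, had signals of 399, 141 and 286. It fell 2.84-fold and then rose 2.03-fold.

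Sqle, squalene epoxidase, stayed within 2-fold, with signals of 377, 287 and 379. Its log2 difference was -0.39 at 24 h, inside the technical SD of 0.41, and 0.40 from 24 to 72 h, just beyond that of 0.36. Lss, which closes the ring of lanosterol, had 141, 75.2 and 142. Sc5d, the sterol C5 desaturase, had 238, 128 and 228. Lss was thus 1.88-fold and Sc5d 1.86-fold lower at 24 h, and both were within a factor of 1.04 of their start at 72 h. Tm7sf2, a sterol reductase, had 111, 74.2 and 94.4.

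Msmo1, which oxidises the methyl groups at carbon 4 of the ring, overshot its start: its signals were 540.5, 309 and 838 at 0, 24 and 72 h. It rose 2.71-fold from 24 to 72 h, a call that held under every alternative that gave it a value. At 72 h it stood 1.55-fold above 0 h.

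Nsdhl, Hsd17b7 and Ebp did not dip. They act one after another or close together in the removal of these methyl groups and the shift of the ring double bond. Nsdhl had signals of 215 at 0 h, 304 at 24 h and 560.0 at 72 h and was 2.60-fold higher at 72 h than at 0 h, a rise that held under all 9 alternatives. Hsd17b7 had 38.6, 58.1 and 74.0, near the floor, and Ebp 487, 613 and 699. Hsd17b7 and Ebp stayed within 2-fold in each comparison. None of the 3 genes turned sign under any alternative. Dhcr7, which carries out the last reduction to cholesterol, went the other way: its signals were 159, 106 and 75.7. It fell 2.11-fold by 72 h, but by less than 2-fold on the deposited scale and with a floor at the 60th percentile.

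Divided at lanosterol, a split made after the values were seen, 9 of 9 genes before it lay below their start at 24 h (median -0.97) and 5 of 8 genes after it (median -0.58). Of all genes, 43.1% did. On the deposited scale 7 of 9 and 3 of 8 lay below, with medians of -0.24 and 0.15. Of all genes there, 1271 of 8460 did, with a median of 0.78. This difference between early and late genes was not tested.

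**Figure D2:**
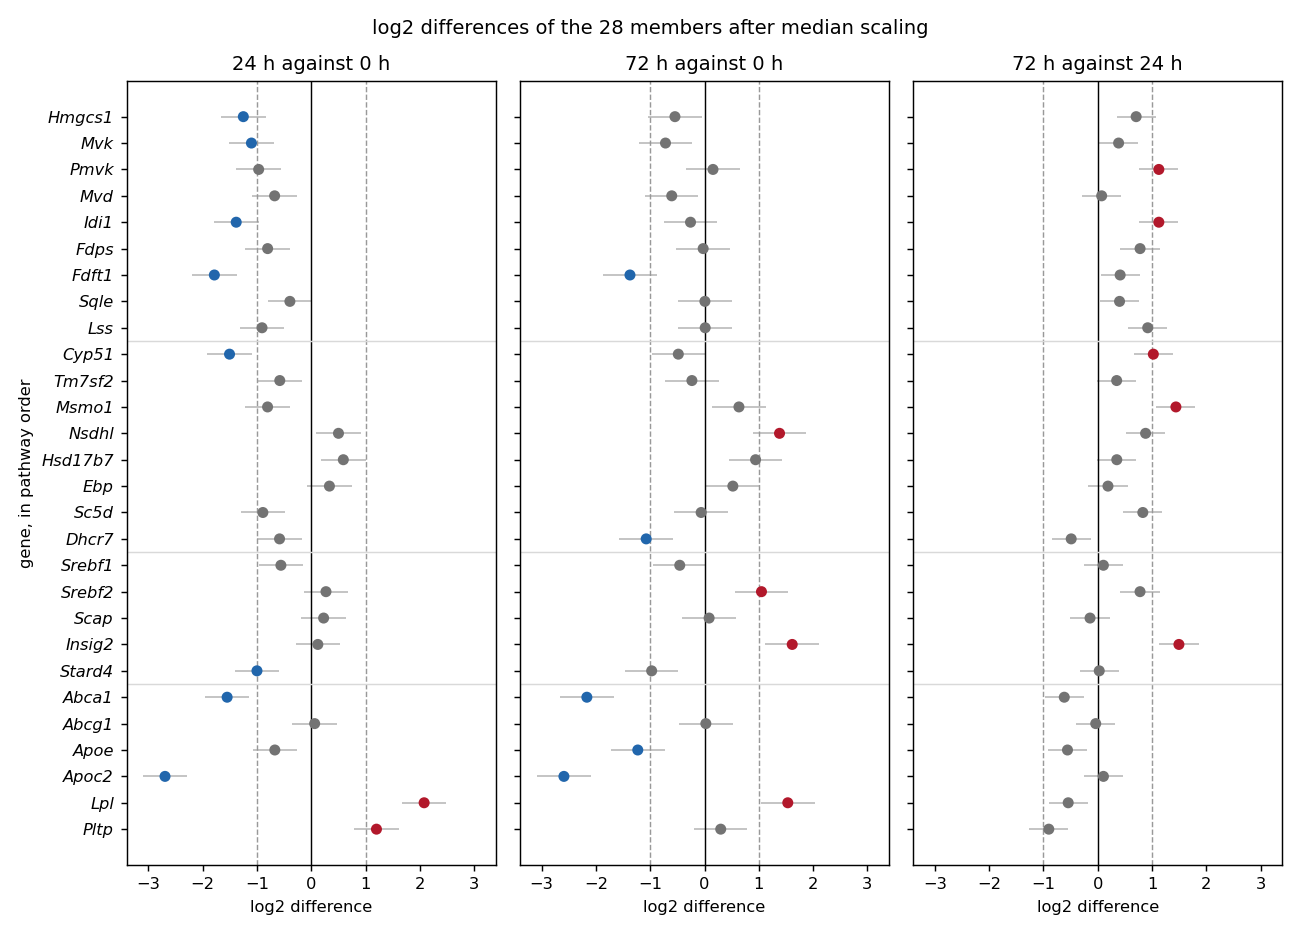
Each point is the log2 difference of a member in 1 comparison, in pathway order from top to bottom, with a grey bar of the technical SD (0.41, 0.49 or 0.36) on each side. Dashed lines mark 2-fold, blue points are calls lower and red points calls higher: 8 lower and 2 higher at 24 h, 5 lower and 4 higher at 72 h against 0 h, and 5 higher at 72 h against 24 h. On the deposited scale, which moves the points of the first 2 panels to the right by 0.73 and 0.77 (less for Hsd17b7, whose 0 h signal is then under the floor), the counts against 0 h become 2 lower and 5 higher at 24 h and 2 lower and 8 higher at 72 h. Of all genes on that scale, 314 of 8460 were lower and 3302 higher at 24 h, and 455 of 8540 lower and 2985 higher at 72 h.

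From 24 to 72 h, 5 of the 28 members were at least 2-fold higher (17.9%, against 6.92% of all 8391 measured genes) and 0 lower (against 10%). By the 1.5-fold rule 11 were higher and 2 lower, against 14.2% and 24.2%. The 5 were Pmvk, Idi1, Cyp51, Msmo1 and Insig2. The members' median log2 difference was 0.37 and that of the synthesis enzymes 0.71, against -0.14 for all genes. The 2 later arrays differed little in overall level, and the enzymes' median was 0.75 on the deposited scale, 0.76 after quantile normalization, 0.78 with trimmed mean scaling and 0.58 with scaling to hybridization controls. With the last of these the count of members called higher was 2, since Pmvk, Idi1 and Cyp51 came to lie just short of 2-fold.

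Over the whole course, from 0 to 72 h, 4 members were higher (14.3%, against 12.5% of all 8558 measured genes) and 5 lower (17.9% against 12.8%), shares close to those of all genes. The 1.5-fold rule gave 6 higher and 8 lower, against 23.2% and 23.3% of all genes. Of the 17 synthesis enzymes, 14 were within 2-fold of their start, as were 6395 of all 8558 genes. At 24 h 12 of the 17 had been within 2-fold. The enzymes' median at 72 h was -0.06 (0.71 on the deposited scale, where the median of all genes was 0.68).

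**Figure D3:**
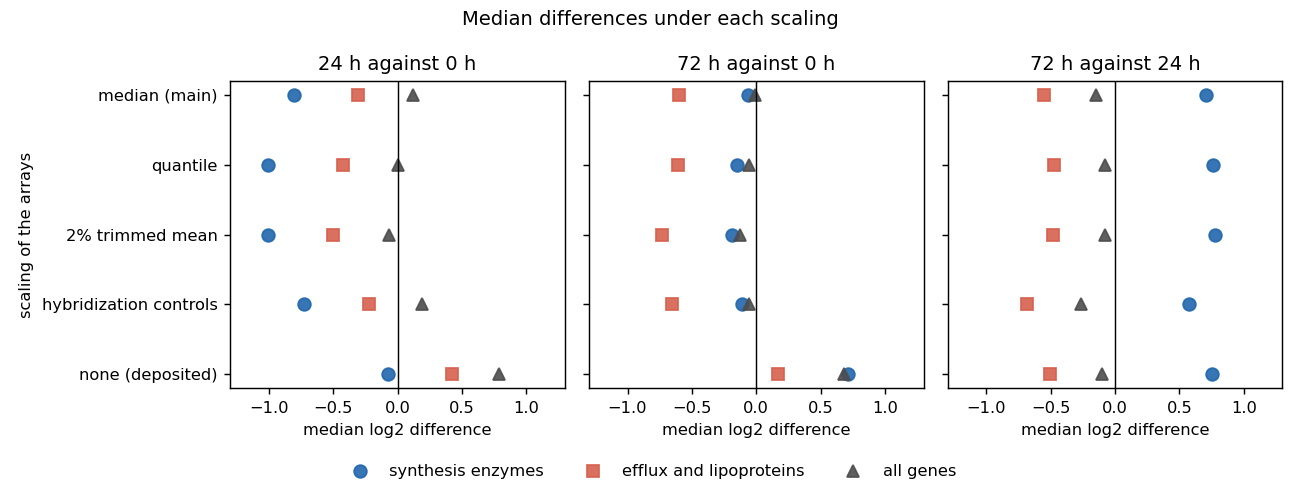
Median log2 difference (horizontal axis) of the 17 synthesis enzymes (circles), the 6 efflux and lipoprotein genes (squares) and all measured genes (triangles) under 5 ways of scaling the arrays, 1 panel per comparison. The circles lie left of the triangles at 24 h in each of the 5 scalings and right of them at 72 h against 24 h, while on the deposited scale the circle itself sits at -0.076 at 24 h and the square turns from -0.30 to 0.42.

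Because most of the enzymes moved together, their promoters were set side by side. SREBP binds sterol regulatory elements and is known to need the help of NF-Y, which binds CCAAT boxes, and of Sp1, which binds GC boxes. The 6 windows here run from 250 bases before to 50 bases after an annotated start (RefSeq, build GRCm38.p6) and are written 5′ to 3′ on the gene's own strand. They show 4 enzymes that fell and returned or partly returned (Hmgcs1, Mvk, Idi1, Cyp51), 1 that rose (Nsdhl) and the exporter Abca1, which fell. Capitals mark CCAAT on either strand (read as ATTGG on the opposite one) and, in Hmgcs1 alone, a match to the sterol element letters TCACNCCAC.
Hmgcs1, chr13:119690101-119690400, plus strand: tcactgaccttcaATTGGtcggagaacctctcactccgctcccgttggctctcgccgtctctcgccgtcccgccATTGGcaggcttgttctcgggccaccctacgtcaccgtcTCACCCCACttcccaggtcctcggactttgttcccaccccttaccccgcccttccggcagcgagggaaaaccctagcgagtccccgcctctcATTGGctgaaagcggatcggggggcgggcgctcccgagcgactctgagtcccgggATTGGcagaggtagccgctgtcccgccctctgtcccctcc
Mvk, chr5:114444019-114444318, plus strand: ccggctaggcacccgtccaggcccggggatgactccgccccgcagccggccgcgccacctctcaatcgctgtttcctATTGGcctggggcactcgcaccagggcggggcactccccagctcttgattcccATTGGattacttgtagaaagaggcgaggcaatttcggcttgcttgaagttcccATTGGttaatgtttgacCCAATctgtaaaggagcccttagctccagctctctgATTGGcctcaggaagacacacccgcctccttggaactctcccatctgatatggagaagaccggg
Idi1, chr13:8885356-8885655, plus strand: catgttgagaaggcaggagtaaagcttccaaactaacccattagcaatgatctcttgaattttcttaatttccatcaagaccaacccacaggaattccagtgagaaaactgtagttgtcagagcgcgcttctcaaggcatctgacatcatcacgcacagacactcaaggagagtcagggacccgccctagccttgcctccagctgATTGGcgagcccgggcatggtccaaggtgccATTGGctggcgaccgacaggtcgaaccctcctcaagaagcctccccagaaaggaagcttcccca
Cyp51, chr5:4104648-4104947, minus strand: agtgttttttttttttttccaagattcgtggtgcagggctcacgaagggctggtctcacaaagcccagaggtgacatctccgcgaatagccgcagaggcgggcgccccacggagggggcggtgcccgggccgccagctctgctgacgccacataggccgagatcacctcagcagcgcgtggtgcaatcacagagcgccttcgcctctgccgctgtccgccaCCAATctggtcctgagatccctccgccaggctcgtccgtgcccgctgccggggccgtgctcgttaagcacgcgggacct
Nsdhl, chrX:72918271-72918570, plus strand: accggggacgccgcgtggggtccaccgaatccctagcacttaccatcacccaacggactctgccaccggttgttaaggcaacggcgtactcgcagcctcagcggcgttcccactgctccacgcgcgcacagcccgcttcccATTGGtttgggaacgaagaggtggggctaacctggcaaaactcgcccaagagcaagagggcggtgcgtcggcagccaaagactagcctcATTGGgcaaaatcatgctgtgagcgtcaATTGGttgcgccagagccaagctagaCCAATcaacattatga
Abca1, chr4:53159846-53160145, minus strand: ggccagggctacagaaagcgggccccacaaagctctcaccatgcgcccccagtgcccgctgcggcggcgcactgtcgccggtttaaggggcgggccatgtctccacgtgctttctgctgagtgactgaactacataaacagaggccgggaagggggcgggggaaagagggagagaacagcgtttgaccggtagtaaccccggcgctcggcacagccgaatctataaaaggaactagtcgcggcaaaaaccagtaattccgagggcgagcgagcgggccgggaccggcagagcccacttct

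CCAAT was found in at least 1 promoter window of each of the 14 synthesis enzymes that the table holds, a set without Fdps, Fdft1 and Sqle. Counted by window it was in 14 of 17 (82.4%), against 37.4% of all 32851 windows of the same length. Mvk had 5 boxes, Hmgcs1 and Nsdhl 4 each, and Msmo1 and Hsd17b7 3 each. Of the 32 boxes, 20 lay within the 100 bases before the start and 23 read on the opposite strand. The windows of Nsdhl, Hsd17b7 and Ebp, whose signals did not dip, held the box as well, so it did not separate enzymes that fell from those that did not.

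Among the other 8 members in the table, 5 of 15 windows (33.3%) held CCAAT. Counted by gene, 4 of the 8 (50%) held it in at least 1 window, against 41.1% of all genes. Of the efflux and lipoprotein genes, Pltp had a box, and Abca1, Apoe and Apoc2 had none. Abcg1 and Lpl, and Stard4 among the other members, had no window. The Sp1 box GGGCGG was in 14 of 17 windows of the enzymes (82.4%) and in 35.7% of all windows. The sterol element letters TCACNCCAC were in 1 of 17, that of Hmgcs1, and in 1.24% of all windows. The E-box CACGTG was in 3 of 17 (17.6%) and in 7.15% of all. All 4 were searched on both strands, and no match to 1 motif overlapped a match to another in these windows. A match is a description of these letters and not a bound site.

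**Figure D4:**
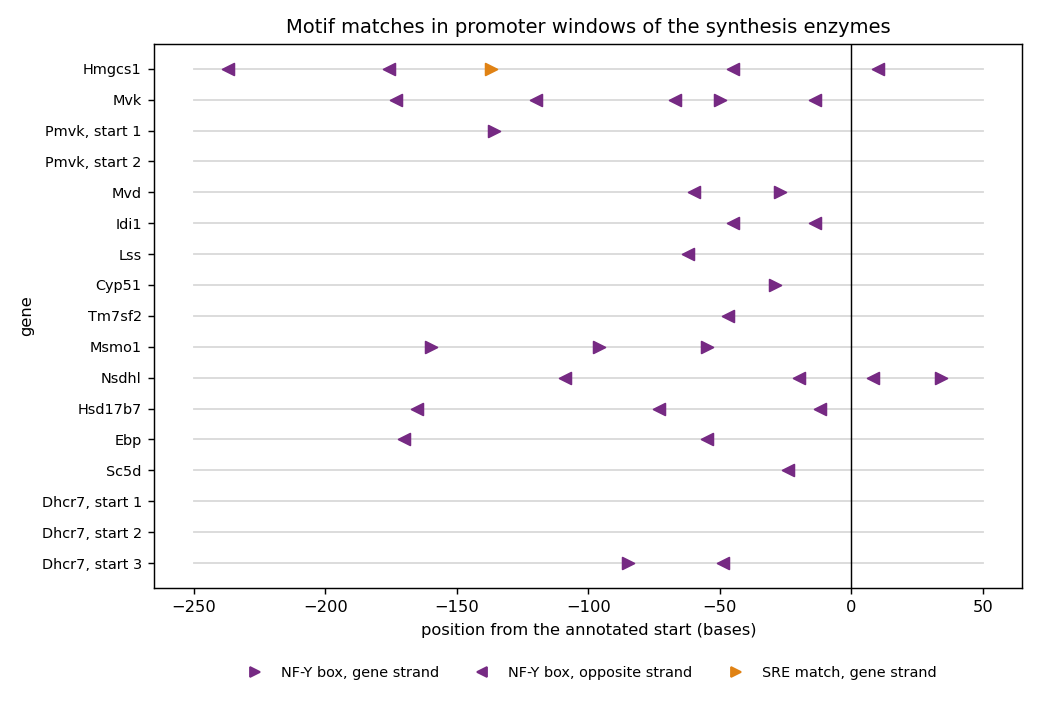
Position of each CCAAT match (purple) and of the sterol element match (orange) from the annotated start, in bases, in the 17 promoter windows of 14 synthesis enzymes, 1 line per window. Arrowheads pointing right read on the gene's strand and those pointing left on the opposite strand, and 20 of the 32 CCAAT boxes fall within the 100 bases before the start.

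Of the 4 measured genes of sterol sensing, 0 passed 2-fold from 0 to 24 h (against 9.22% of all genes lower and 13.2% higher). From 24 to 72 h 1 rose (25%, against 6.92% of all genes), and from 0 to 72 h 2 rose (50%, against 12.5%). With trimmed mean scaling and with hybridization control scaling, 1 rose from 0 to 72 h. Insig2, an anchor that holds SCAP and SREBP in the endoplasmic reticulum, had signals of 182 at 0 h, 198 at 24 h and 557 at 72 h, 3.06-fold above the start. It rose 2.82-fold from 24 to 72 h, and its 3 probe sets had log2 differences of 1.49, 1.86 and 2.12 over that interval. The rises from 0 h and from 24 h held under all 9 alternatives.

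Srebf2 encodes SREBP-2, the form that chiefly drives cholesterol genes. Its signals were 161, 194 and 332, a 2.07-fold rise over 72 h, and its other probe set gave 182, 140 and 281. The call ended with the probe sets averaged, with trimmed mean scaling and with hybridization control scaling, where the change fell short of 2-fold. Srebf1, which encodes SREBP-1, the form tied more to fatty acid genes, had 415, 282 and 303, at most 1.47-fold apart. Scap had 215, 251 and 228, all within a factor of 1.17 of the start.

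Stard4, a carrier that moves cholesterol between membranes, had signals of 391 at 0 h, 196 at 24 h and 199 at 72 h. Its 24 h fall was 2.0-fold by 1 probe set, right at the threshold, and was lost on the deposited scale, with hybridization control scaling and with the probe sets averaged. Its other probe set gave 186, 124 and 165. Between 24 and 72 h the brightest probe set differed by a factor of 1.02, and the other had a log2 difference of 0.41.

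**Figure D5:**
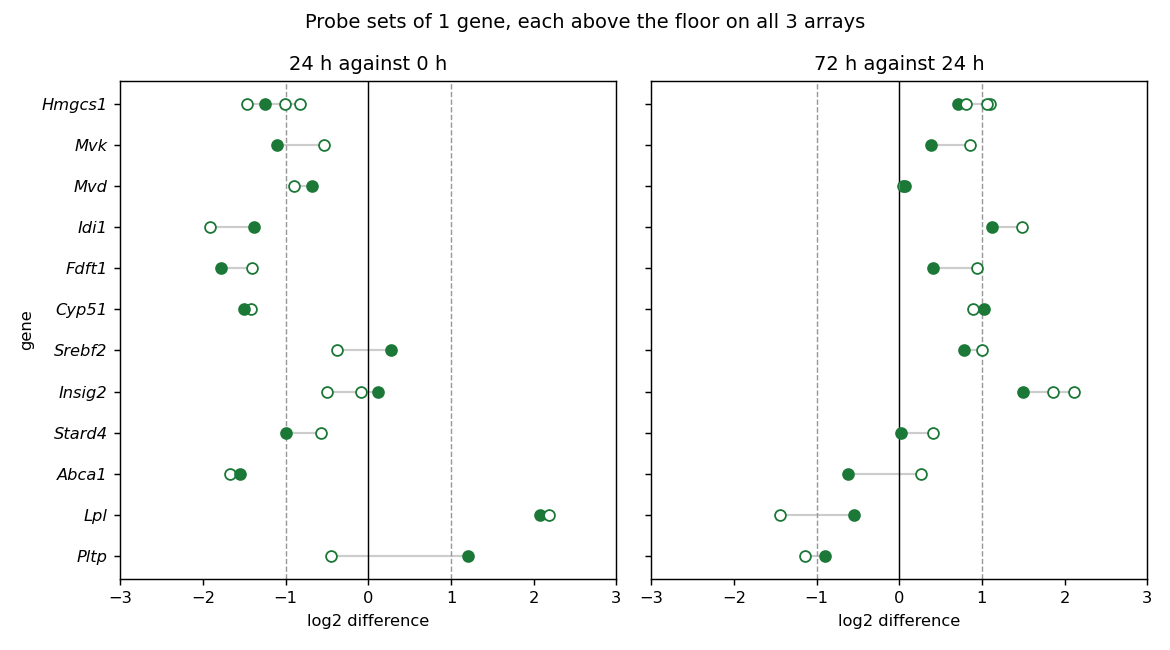
log2 differences of the 12 members that have at least 2 probe sets above the floor on all 3 arrays, with filled points for the brightest probe set of a gene and open points for the others. Hmgcs1, Mvk, Mvd, Idi1, Fdft1 and Cyp51 lie left of 0 at 24 h and right of 0 afterwards with each probe set, while those of Pltp, Srebf2 and Insig2 straddle 0 at 24 h and those of Abca1 do so afterwards. On the deposited scale the points of the first panel lie 0.73 further right. Of those left of 0, 1 each of Mvd, Mvk, Stard4, Srebf2 and Pltp and 2 of Insig2 then lie right of it, and no probe sets of Pltp, Srebf2 or Insig2 straddle 0.

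Genes of export and lipoproteins went separate ways, and the timing differed between them. Apoc2 and Lpl differed most from 0 to 24 h. Apoe had log2 differences of -0.67 and then -0.56 (0.06 and -0.51 on the deposited scale). Of 6 genes, Abca1 and Apoc2 fell by 24 h, and Lpl and, by its brightest probe set, Pltp rose. Abca1, the pump that loads cholesterol onto apolipoproteins, had signals of 2210 at 0 h, 755 at 24 h and 492 at 72 h. It fell 2.93-fold by 24 h and 4.49-fold by 72 h. Its second probe set gave 316, 98.9 and 118, and its dimmest 101, 14.0 and 38.9, so all 3 were lower at 24 h. The 72 h fall held under all 9 alternatives. Abcg1, the pump that sends cholesterol to lipoprotein particles, had 333, 347 and 338, and no difference larger than 1.04-fold.

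Apoe, the apolipoprotein that macrophages secrete, had signals of 10417, 6540 and 4444. It fell 2.34-fold by 72 h, and by less than 2-fold on the deposited scale, where its signals were 7365, 7664 and 5364. Apoc2, the protein cofactor of lipoprotein lipase, went from 962 at 0 h to 149 at 24 h and 160 at 72 h, a 6.47-fold fall. It was the largest change of any member at 24 h, except on the deposited scale, where that of Lpl was larger (2.81 against -1.96 on the log2 scale). The fall held in both comparisons with 0 h under all 9 alternatives.

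Lpl, lipoprotein lipase itself, moved opposite to its cofactor. Its signals were 893 at 0 h, 3767 at 24 h and 2583 at 72 h, a 4.22-fold rise by 24 h. A second probe set gave 199, 908 and 335, and the calls against 0 h held under all 9 alternatives. Pltp, the phospholipid transfer protein of plasma, had 237, 545 and 292 by its brightest probe set and 504, 370 and 168 by the other. The direction at 24 h therefore depends on the probe set, with log2 differences of 1.2 and -0.45, and no direction is given for it.

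Macrophage markers fell in the same interval as Abca1 and Apoc2. Of 9 measured markers 8 fell by 24 h, and their summed scaled signals were 29722, 8870 and 9422 at 0, 24 and 72 h. Neutrophil and precursor markers fell in 2 of 9 by 24 h (Mpo and Prtn3) and in 9 of 9 by 72 h (summed 18283, 13042 and 1339). On the deposited scale Mpo (976 and 624 at 0 and 24 h) and Prtn3 (452 and 280) stayed within 2-fold at 24 h. Of 8 stromal and osteoblast markers 3 rose by 72 h, all collagens (Col1a1, Col1a2 and Col3a1; summed over the list 2238, 2347 and 7014). Dcn fell 2.78-fold, but by less than 2-fold on the deposited scale (89.8 and 55.1 at 0 and 72 h). Of all genes, 9.22% fell by 24 h, and 12.8% fell and 12.5% rose by 72 h. All 8 osteoclast markers rose by 72 h (1561, 6898 and 31892). The part of these cells in the members' differences was not tested. Lpl is also a gene of fat cells, and the fat cell markers Adipoq, Lep, Cidec and Pparg were under the floor at all times. Fabp4 (117, 18.6 and 37.6 at 0, 24 and 72 h) and Retn (26.1, 34.6 and 31.7) were above it on some arrays. The erythroid markers Hba-a1 and Alas2 and the B cell markers Cd79a, Ms4a1 and Vpreb1 were under the floor at all times as well. Erythroid Epor (41.1, 50.7 and 23.2) and B cell Cd79b (45.1, 20.5 and 16.1) were above it on at least 1 array.

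Other genes around cholesterol were read from 6 lists, with calls counted against the shares of all genes given above. The counts against 0 h moved with the scale of the arrays, and those on the deposited scale are given beside them. On that scale 3302 of all 8460 measured genes were called higher and 314 lower at 24 h. At 72 h against 0 h 2985 of 8540 were higher and 455 lower. In the uptake list 3 of 5 measured receptors fell by 24 h and 0 rose (2 of 6 and 0 on the deposited scale). Cd36, a scavenger receptor for oxidised lipoproteins, had signals of 342, 61.2 and 58.7, a 5.58-fold fall by 24 h. All 3 probe sets were lower at 24 h, with log2 differences from -3.44 to -0.96, the smallest just short of 2-fold. Lrp1, an endocytic receptor for apoE particles, had 1642, 305 and 251. Vldlr had 98.5, 30.6 and 57.0 by 1 of 4 probe sets, the others being under the floor. Scarb1, the HDL receptor, and Msr1, the scavenger receptor A, stayed within 2-fold.

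In the list of LXR, oxysterols and their targets, 4 of 9 fell by 24 h and 1 rose, and 4 fell and 0 rose by 72 h. Without centring, on the deposited scale, 3 were lower and 1 higher at 24 h, and 4 lower and 1 higher at 72 h. Cyp27a1, the mitochondrial enzyme that makes 27-hydroxycholesterol, had signals of 400.1 at 0 h, 32.2 at 24 h and 30.5 at 72 h, a 12.4-fold fall to near the floor. Mylip, an LXR target that marks lipoprotein receptors for degradation, had 611, 169 and 143. Rxra, the partner receptor of LXR, had 437, 107 and 115, while its other probe set differed less, with a log2 difference of -0.43 at 24 h. Nr1h3, which encodes LXR alpha, had 54.8, 53.2 and 59.5, with no difference beyond 1.12-fold. Smpdl3a fell by 24 h alone, Abca7 by 72 h alone among the comparisons with 0 h, and Rxrb rose 2.04-fold by 24 h and stood at its start at 72 h. The rise of Rxrb was lost after quantile normalization and with trimmed mean scaling, where 0 genes of the list rose by 24 h.

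In lysosomal handling, 1 of 6 genes fell by 24 h and 2 by 72 h, with 0 rising. The deposited scale gave 1 lower and 0 higher at 24 h, and 1 lower and 2 higher at 72 h. Lipa, the lysosomal lipase that frees cholesterol from its esters, had signals of 2546, 618 and 768. Scarb2 had 1203, 743 and 303. Npc1 and Npc2, which pass cholesterol out of lysosomes, stayed within 2-fold.

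The fatty acid targets of SREBP went both ways. Of 12 measured, 2 fell and 0 rose by 24 h, 3 fell and 1 rose by 72 h, and between 24 and 72 h 3 rose and 2 fell. By deposited signals 1 was lower and 3 higher at 24 h, and 2 of 11 lower and 5 higher at 72 h. Scd2, a stearoyl-CoA desaturase, had the dip and return of the sterol enzymes, with signals of 952, 448 and 1473, a 2.12-fold fall and a 3.28-fold rise. Its 3 probe sets ranged from -1.09 to -0.21 on the log2 scale at 24 h and from 1.72 to 2.43 afterwards. Scd1 had 73.9, 39.99 and 114, and rose 2.85-fold from 24 to 72 h. Acss2, which makes cytosolic acetyl-CoA from acetate, had 146, 38.2 and 44.7 and did not come back. The desaturases Fads1 (870.1, 460.4 and 174) and Fads2 (129, 128 and 35.99) fell by 72 h, and Mid1ip1, a partner of acetyl-CoA carboxylase, rose (1078, 1801 and 2911). The other probe set of Fads2 had a log2 difference of -0.30 at 72 h, so its fall rests on 1 probe set.

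The isoprenoid branch uses the product of Fdps. Of its 9 measured genes 1 rose and 0 fell by 24 h, and 0 passed 2-fold in either other comparison. Uncentred deposited signals put 4 higher at 24 h and 4 at 72 h, with 0 lower. Zmpste24, a protease of prenylated proteins, was the member that rose (446, 1005 and 600 at 0, 24 and 72 h, 2.25-fold by 24 h). After quantile normalization and with trimmed mean scaling 0 genes of this branch rose by 24 h. With hybridization control scaling 2 did, and 1 fell from 24 to 72 h. Ggps1, which makes geranylgeranyl diphosphate for small GTPases, had 66.3, 44.7 and 78.2. Of SREBP processing genes, 3 were measured and 0 passed 2-fold in any comparison, with Mbtps1, the site-1 protease, at 278, 447 and 433. In deposited signals 2 were higher at 24 h and 1 at 72 h, with 0 lower.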

How the data were processed

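RNA of 3 cultures was measured on 3 Affymetrix arrays, 1 per time. Per the labels, 5 µg of total RNA was made into biotinylated cRNA. The authors deposited linear intensity signals, and the submitters' processing notes name MAS5. Its version is not given in the sources used here. Of 22626 gene probe sets (64 control probe sets left out), 20380 carry 1 symbol in the platform annotation, 691 several and 1555 none. Only the first were used.

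Signals were log2-transformed, centred on each array's median and given a floor at the 40th percentile, with Python 3.11.15, numpy 2.4.6 and pandas 2.3.3. A gene took its probe set with the highest mean log2 signal, and calls were made at 2-fold. The technical SD used 2702 to 2785 genes with 2 probe sets above the floor. The code was tested on simulated data. The number of arrays limits the precision. Alternatives were 4 scalings, 3 floors, 2 choices of probe set and a 1.5-fold call. Every listed member was named, and from the other pathway lists the genes past 2-fold or defining for their list. The members, lists and alternatives were chosen with earlier results of these data known. Promoter letters were read from RefSeq windows. Windows on opposite strands that overlap matched as reverse complements in 1670 of 1670 cases.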

Additional observations from a re-analysis of the deposited data

How the results depend on the processing

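Of 114 recomputed counts and medians, 93 kept their value within 1.5 times (counts) or the technical SD (medians). On the deposited scale the members lower and higher at 24 h were 2 and 5 in place of 8 and 2, and at 72 h against 0 h 2 and 8 in place of 5 and 4. Of all genes there, 314 of 8460 were lower and 3302 higher at 24 h, and 455 of 8540 lower and 2985 higher at 72 h. The members' medians there were 0.056 and 0.73 in place of -0.67 and -0.04, and those of the enzymes -0.076 and 0.71 in place of -0.81 and -0.06. This scale leaves the shift between arrays in place by its construction. With trimmed mean scaling 13 members were lower at 24 h. With hybridization control scaling 2 were higher and 1 lower at 72 h against 24 h, in place of 5 and 0. With the probe sets averaged, 5 were lower and 1 higher at 24 h, and 1 was lower at 72 h against 24 h. Without probe sets shared between transcripts (23 or 24 members left), 1 was higher at 24 h, and 3 were higher and 1 lower at 72 h against 24 h. Pltp turned to -0.45 at 24 h, the only called member whose sign changed. The 1.5-fold call gave 15 lower at 24 h, 8 lower at 72 h against 0 h, and 11 higher and 2 lower at 72 h against 24 h. The other floors moved none of these counts by over 1.5 times. Of the called members, 2 of 10 at 24 h, 5 of 9 at 72 h against 0 h and 2 of 5 at 72 h against 24 h kept their call under all scalings, floors and probe set choices that gave them a value. The cause of the changes between settings was not tested. No replicate could be left out, and no paired analysis was possible because each time has 1 array. Signals near the floor, as for Hsd17b7, limit what can be read from them.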

Other observations

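Apoe and Apoc2 lie in 1 run of apolipoprotein genes, and the genes next to them in the reference order were looked up after the members' values were seen. Between them stand Apoc1 and Apoc4. Apoc1, an apolipoprotein of several lipoprotein classes, had scaled signals of 83.6 at 0 h, 35.5 at 24 h and 24.9 at 72 h, a 2.35-fold fall by 24 h and at least 2.83-fold by 72 h, where it was under the floor. Apoc4 was under the floor at all times (21.0, 4.77 and 2.64). On the Apoe side, Tomm40, a subunit of the mitochondrial import pore, had 292, 878 and 604, a 3.0-fold rise by 24 h. On the Apoc2 side, Clptm1 had 605, 567 and 665, within 2-fold throughout. These calls depend on the scale for Apoc1 and Apoe. The deposited signals were 59.1, 41.6 and 30.1 for Apoc1 and 7365, 7664 and 5364 for Apoe, both within 2-fold of their start, while Apoc2 passed 2-fold on either scale.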
